A study of Mus musculus with 6 samples.

Results

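Acetyl-CoA supply and acetate use was examined through 9 genes of citrate export and of acetyl-CoA making and use, Acly, Acss1, Acss2, Aacs, Acat1, Slc25a1, Crat, Pdha1 and Acot7. The genes were listed by name with earlier results of these data known, and all 9 were found among the 24562 gene symbols of the table. The RNA came from unstimulated bone marrow-derived macrophages (BMDMs), as 3 control and 3 AclyM-KO libraries. The labels call these genotypes WT and KO and the treatment Naive. Both groups carried Acly alleles with loxP sites around exon 9 (Acly fl/fl), on a C57Bl/6J background. AclyM-KO mice also expressed Cre recombinase from the Lyz2 locus, which is active in macrophages, monocytes and neutrophils, while control mice were Cre-negative. The series description calls the mice female, whereas the study's methods give bone marrow of young adult mice of both sexes for in vitro work in general, and neither sex nor age is given per library. Bone marrow cells had been differentiated in the presence of L929-conditioned medium. The study's legends describe replicates of such RNA as technical replicates from pooled mice, so the tests below measure the spread between libraries rather than between mice.

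Acetyl-CoA is made in mitochondria and does not cross their inner membrane. Carbon leaves as citrate through the citrate carrier, encoded by Slc25a1, and ATP citrate lyase, encoded by Acly, cleaves it to acetyl-CoA and oxaloacetate in the cytosol and nucleus. Acetate is the other well-known source, activated by ACSS2 in the cytosol and nucleus and by ACSS1 in mitochondria. Cytosolic acetyl-CoA feeds cholesterol and fatty-acid synthesis and protein acetylation, and macrophages draw on all of these.

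Of the 9 genes, 4 were higher in AclyM-KO macrophages (Acss2, Aacs, Slc25a1 and Acot7), 1 was lower (Acly), and 4 did not pass the test (Acss1, Acat1, Crat and Pdha1). The test was edgeR's quasi-likelihood test with genotype as the only factor and a threshold of 0.05 on the Benjamini-Hochberg adjusted p. Over all 11470 genes tested, 12.3% passed in either direction, 6.7% being higher and 5.65% lower. These were 768 higher and 648 lower genes, and 919 higher and 508 lower when libraries were scaled by total counts only. The median log2 fold change was 0.12 over the 9 genes and 0.00026 over all tested genes, and the median absolute log2 fold change was 0.40 and 0.15, respectively. Control and AclyM-KO libraries did not overlap in 6 of the 9 genes, against 32.8% of all tested genes. AclyM-KO libraries were above control in 4 of these (16.3% of all tested genes) and below it in 2 (16.6%). Acly is the targeted gene, so its fall was built into the design, and the study had already reported the rise of Acss2. The counts thus describe the 9 genes and are no test of them as a set.

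The libraries held between 19327459 and 44507233 counts over all transcripts, with the highest total in AclyM-KO replicate 2. This library also stood furthest from the others of its group, with a chi-square per degree of freedom of 22.0 and 23.5 against AclyM-KO replicates 1 and 3, while other replicate pairs had 3.25 to 8.55. Without it, the same test still called 4 of the 9 genes higher and 1 lower. All 10 macrophage markers examined were expressed. Their summed level was 22188 to 23135 CPM (counts scaled to library size by TMM normalization) in control and 13306 to 15738 CPM in AclyM-KO libraries, and Csf1r, Lyz2 and Mertk were among those lower in edgeR. Without Lyz2, whose locus carries Cre, the sum was 9140 to 9299 CPM in control and 7700 to 8758 CPM in AclyM-KO libraries. Csf1r, the receptor of the macrophage growth factor M-CSF, was at 3091 to 3380 CPM in control and 1733 to 2813 CPM in AclyM-KO libraries. Without both genes the sums overlapped, at 5918 to 6049 CPM in control and 5945 to 6218 CPM in AclyM-KO libraries. Fewer cells of a type and less RNA per cell cannot be told apart in such samples. Markers of granulocytes summed to 23.8 to 26.3 CPM in control and 24.4 to 24.5 CPM in AclyM-KO libraries, and those of dendritic cells to at most 1.66 CPM in any library. Lymphocyte, stromal, adipocyte and erythroid markers each summed to at most 0.718 CPM, with Cd3e, Col3a1, Pdgfra, Plin1, Cfd, Lep, Hba-a1 and Hbb-bs at 0 in every library. The part of these marker levels in the results was not tested.

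Acly, the targeted gene, served as the check of the genotype labels. It lies on the minus strand of chromosome 11 (chr11:100476356-100528000, mm10) with 28 exons. Its level was 220.4, 233 and 236 CPM in the control libraries and 93.3, 98.9 and 98.3 CPM in the AclyM-KO libraries. All AclyM-KO libraries were thus far below all control libraries, and the values within each group lay close together. This was 229.7 ± 8.18 CPM in control and 96.8 ± 3.06 CPM in AclyM-KO macrophages (SD, n = 3 each), which gave a log2 difference of -1.25 with a standard error of 0.066 (edgeR adjusted p = 5.58e-07). Only 7 of all tested genes had a smaller p. The table holds a pair of Acly rows. Counts in control replicates 1, 2 and 3 were 2424, 3117 and 2614 for NM_134037 and 2416, 3098 and 2587 for NM_001199296. In AclyM-KO replicates 1, 2 and 3 they were 1072, 2617 and 1127 for the first and 1071, 2605 and 1111 for the second. These rows share most exons and their counts nearly coincide, so the table does not separate the isoforms. The exon that GENCODE numbers 9 spans 137 bases (chr11:100514962-100515098), or 3.12% of the 4393 bases of the transcript. Counts were summed over whole transcripts, so the remaining Acly level of AclyM-KO libraries covers all reads of the gene, with or without the floxed exon.

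**Figure D1:**
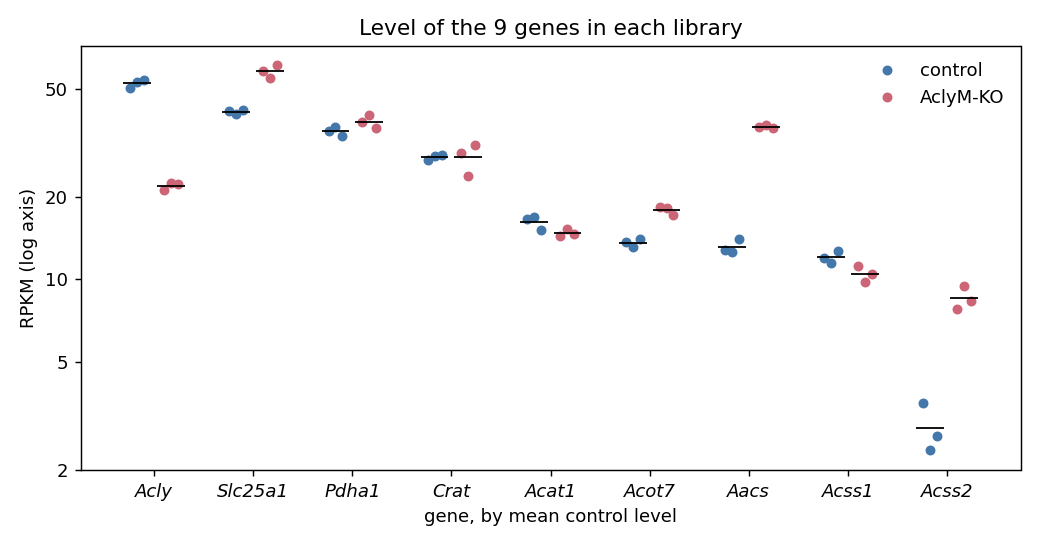
Level of the 9 genes in RPKM (TMM-normalized CPM per kilobase of transcript, log axis), ordered by mean control level. Each point is 1 library (blue, control; red, AclyM-KO), and black lines are means of 3 libraries. Acly fell from the first place among the 9 genes in control to the fifth in AclyM-KO libraries, and Aacs moved from the seventh to the third.

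To compare levels between genes, CPM were divided by transcript length. In control macrophages Acly was the most abundant of the 9 transcripts with 52.3 ± 1.86 RPKM, followed by Slc25a1 (41.2 ± 0.675 RPKM), Pdha1 (34.9 ± 1.39 RPKM) and Crat (28.1 ± 0.599 RPKM; SD, n = 3 for each). Acat1 had 16.3 RPKM, Acot7 13.6 RPKM, Aacs 13.1 RPKM and Acss1 12.1 RPKM, and Acss2 was lowest with 2.86 ± 0.604 RPKM (SD, n = 3). Neighbours in this order did not overlap between libraries, except Acot7 with Aacs and Aacs with Acss1. In AclyM-KO macrophages Slc25a1 was highest (57.9 ± 3.22 RPKM), followed by Pdha1 (37.9 ± 2.22 RPKM) and Aacs (36.2 ± 0.454 RPKM; SD, n = 3 for each), and the libraries of Pdha1 and Aacs overlapped. Crat, Acly, Acot7, Acat1, Acss1 and Acss2 followed with 28.0, 22.0, 17.9, 14.8, 10.5 and 8.54 RPKM, respectively, without overlap between neighbours. Acss2 thus remained the lowest of the 9 genes in both groups.

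Promoter sequences of the 3 genes that rose with the smallest p are shown because SREBP factors, which drive sterol and fatty-acid genes, are known to bind such regions of lipid genes. Each sequence is the 250 bases before the RefSeq start site (GRCm38.p6, the build of mm10) in the direction of transcription. These are chr2:155517793-155518042 on the plus strand for Acss2, chr5:125475623-125475872 on the plus strand for Aacs and chr16:17928220-17928469 on the minus strand for Slc25a1. Capitals mark matches to any of 3 motifs, searched on both strands, namely the sterol regulatory element TCACNCCAC, the E-box CACGTG and the inverted CCAAT box ATTGG.
Acss2: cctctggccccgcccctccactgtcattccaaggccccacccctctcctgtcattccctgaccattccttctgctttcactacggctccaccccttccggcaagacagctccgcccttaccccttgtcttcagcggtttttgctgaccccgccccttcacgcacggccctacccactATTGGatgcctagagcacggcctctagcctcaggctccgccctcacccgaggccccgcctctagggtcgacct
Aacs: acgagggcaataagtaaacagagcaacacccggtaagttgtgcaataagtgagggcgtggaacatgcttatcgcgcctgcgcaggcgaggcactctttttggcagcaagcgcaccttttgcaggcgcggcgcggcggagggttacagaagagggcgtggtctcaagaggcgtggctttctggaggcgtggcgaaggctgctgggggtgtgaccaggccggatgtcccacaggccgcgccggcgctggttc
Slc25a1: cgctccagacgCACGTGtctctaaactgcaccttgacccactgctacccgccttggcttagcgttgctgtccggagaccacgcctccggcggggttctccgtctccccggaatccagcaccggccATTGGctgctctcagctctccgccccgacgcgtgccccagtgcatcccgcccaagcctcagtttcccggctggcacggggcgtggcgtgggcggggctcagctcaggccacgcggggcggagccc
Acss2 held an ATTGG at positions -73 to -69 from the start site. In Slc25a1 a CACGTG was found at positions -239 to -234 and an ATTGG at positions -125 to -121. No match overlapped another, and the Aacs window held none of the 3 motifs. Windows of this length were at hand for 7 of the 9 genes, all but Acat1 and Crat, and none of the 7 held TCACNCCAC. Over all 32851 promoter windows, 1.05% held TCACNCCAC, 6.02% held CACGTG and 33.8% held ATTGG. GENCODE places the start sites of Acss2 and Aacs within the printed windows, and the ATTGG of Acss2 lies downstream of its GENCODE start. The RefSeq window of Acot7 lies at a start site inside the gene and is not printed. A match is a description of the letters only, and the lack of one says nothing on binding.

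Acss2 encodes the acetyl-CoA synthetase of cytosol and nucleus and lies on the plus strand of chromosome 2 (chr2:155517948-155562746). It had 10.4, 6.95 and 7.85 CPM in the control libraries and 22.9, 27.7 and 24.5 CPM in the AclyM-KO libraries. Every AclyM-KO library was at least at 22.9 CPM and no control library was above 10.4 CPM. Acss2 rose 3.01-fold, or by 1.59 with a standard error of 0.149 on the log2 scale (edgeR adjusted p = 6.01e-05), and 41 tested genes had a smaller p. Among its 2931 exon bases, 113 (3.86%) are shared with Acss2os on the opposite strand, a gene with counts of 8, 2 and 4 in the control and of 20, 39 and 21 in the AclyM-KO libraries (log2 fold change 2.03, adjusted p = 0.0114 in edgeR). Another 197 bases (6.72%) are shared with Ggt7, which had at most 2 counts in any library. The libraries were strand-specific and the counting used the default settings of its tool, but which strand was counted was not checked here. If both strands were counted, reads of Acss2 and Acss2os in the shared bases cannot be told apart.

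Acss1 encodes the mitochondrial enzyme for the same reaction and lies on the minus strand of the same chromosome (chr2:150618105-150668258). Its level was 43.5, 41.7 and 46.2 CPM in control and 40.4, 35.5 and 37.8 CPM in AclyM-KO libraries. All AclyM-KO libraries were below all control libraries, but the gap between the groups was small. The log2 fold change of -0.21 (95% interval -0.40 to -0.022) had an unadjusted p of 0.0317 and did not pass after adjustment (adjusted p = 0.139 in edgeR). Of its exon bases 2.02% are shared with E130215H24Rik on the opposite strand, which had at most 13 counts in any library.

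Within a library, the ratio of Acss2 to Acss1 in RPKM was 0.294, 0.206 and 0.210 in control and 0.700, 0.961 and 0.801 in AclyM-KO macrophages. The mean log2 ratio was -2.10 ± 0.29 in control and -0.30 ± 0.23 in AclyM-KO libraries (SD, n = 3 each), a difference of 1.8 with no overlap (two-sided exact permutation test, p = 0.1, which is the lowest p within reach of 3 libraries per group). The ratio of Acss2 to Acly was 0.0705, 0.0447 and 0.0499 in control and 0.368, 0.419 and 0.374 in AclyM-KO libraries. Its mean log2 ratio differed by 2.84 between the groups, again without overlap (two-sided exact permutation test, p = 0.1). Both ratios stayed below 1 in every library, so Acss1 and Acly transcripts were still more abundant per length than Acss2 transcripts in AclyM-KO macrophages. Since the ratios are taken within a library, scaling for depth does not enter them.

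**Figure D2:**
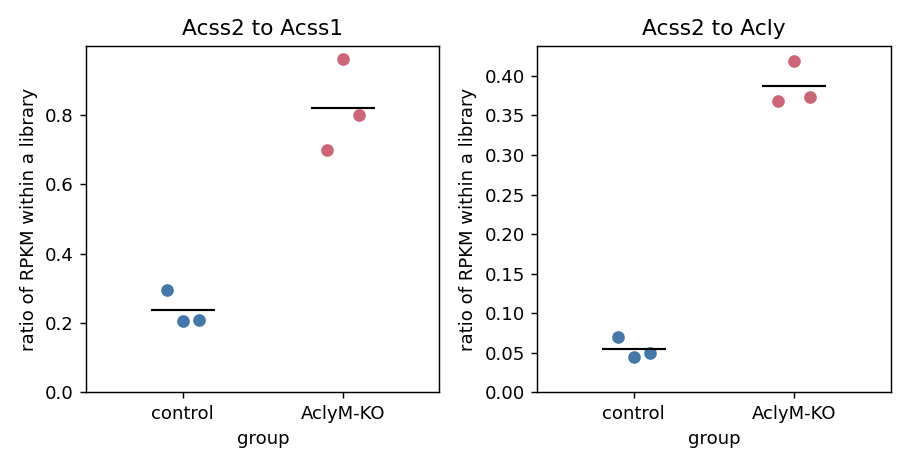
Ratio of the RPKM of Acss2 to that of Acss1 (left) and of Acly (right) within each library. Points are libraries and black lines are means of 3 libraries. The AclyM-KO libraries lie between 0.700 and 0.961 on the left and between 0.368 and 0.419 on the right, above all control libraries.

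Aacs encodes acetoacetyl-CoA synthetase, a cytosolic enzyme that activates the ketone body acetoacetate for lipid synthesis, and lies on chromosome 5 (chr5:125475814-125517410). Its level was 41.4, 40.8 and 45.5 CPM in control and 117, 119 and 116 CPM in AclyM-KO libraries. The AclyM-KO libraries were nearly equal and all well above control. Aacs rose 2.76-fold, or by 1.46 with a standard error of 0.073 on the log2 scale (edgeR adjusted p = 3.37e-07), and only 6 of all tested genes had a smaller p. Acat1, which encodes the mitochondrial acetoacetyl-CoA thiolase and lies on chromosome 9 (chr9:53580522-53610382), was at 51.9 to 57.9 CPM in control and 49.1 to 52.0 CPM in AclyM-KO libraries. The groups overlapped, and the log2 fold change of -0.14 (95% interval -0.31 to 0.031) did not pass the test (adjusted p = 0.281 in edgeR).

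Slc25a1, the mitochondrial citrate carrier, lies on chromosome 16 (chr16:17925223-17928219). Its level was 69.0, 67.3 and 69.5 CPM in control and 97.0, 90.9 and 102 CPM in AclyM-KO libraries, again without overlap. The carrier rose 1.40-fold, or by 0.49 with a standard error of 0.072 on the log2 scale (edgeR adjusted p = 0.00156). The transcript of the carrier was thus higher and that of the lyase that uses its citrate lower in the same libraries.

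Acot7 encodes an acyl-CoA thioesterase that releases free CoA from acyl-CoA and lies on chromosome 4 (chr4:152178134-152271852). It was at 20.01, 19.1 and 20.5 CPM in control and 26.8, 26.6 and 25.04 CPM in AclyM-KO libraries. The groups did not overlap, and Acot7 rose by 0.40 with a standard error of 0.095 on the log2 scale (edgeR adjusted p = 0.0186). This call was lost without control replicate 1, 2 or 3 (adjusted p = 0.0808, 0.0963 and 0.0663 in edgeR), although leaving out any 1 library gave log2 fold changes of 0.37 to 0.43. All 3 Acot7 rows of the table had nearly the same counts, between 218 and 220 in control replicate 1 and between 688 and 703 in AclyM-KO replicate 2.

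Crat encodes carnitine acetyltransferase, which moves acetyl groups between CoA and carnitine, and Pdha1 a subunit of pyruvate dehydrogenase, the enzyme that makes acetyl-CoA from pyruvate. Crat (chr2:30401101-30415813) was at 105 to 109 CPM in control and at 111, 91.9 and 119 CPM in AclyM-KO replicates 1, 2 and 3. AclyM-KO replicate 2 was below and the other AclyM-KO libraries above all control libraries. The log2 fold change was -0.0096 (95% interval -0.21 to 0.19, adjusted p = 0.96 in edgeR), and 0.10 without AclyM-KO replicate 2 (adjusted p = 0.265 in edgeR). Pdha1 (chrX:160122209-160138413) was at 95.3 to 103 CPM in control and 102 to 115 CPM in AclyM-KO libraries. The groups overlapped, and the log2 fold change of 0.12 (95% interval -0.037 to 0.28) did not pass (adjusted p = 0.316 in edgeR). Map3k15 on the opposite strand shares 603 of the 2848 exon bases of Pdha1 (21.2%) and had 273 to 881 counts per library, so the same limit holds for the shared bases of this pair.

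**Figure D3:**
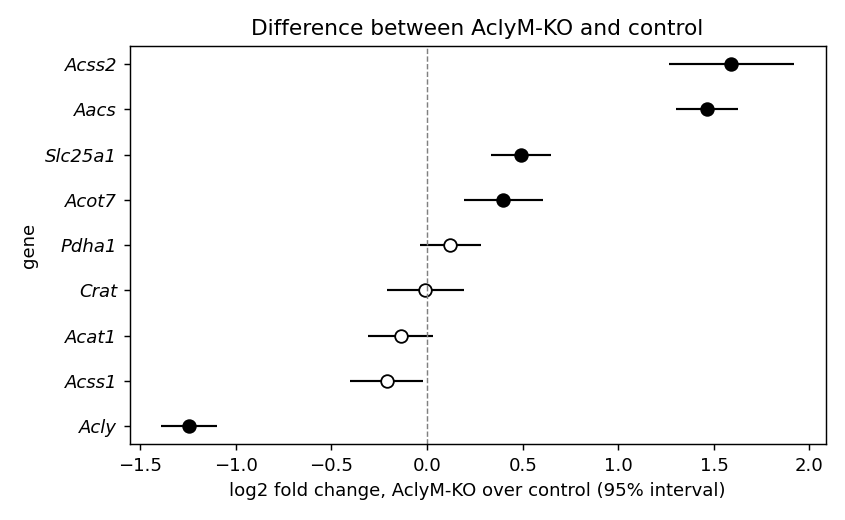
Log2 fold change of the 9 genes between AclyM-KO and control macrophages, with 95% intervals from edgeR's standard errors. Filled points passed an adjusted p of 0.05. Acss2 and Aacs rose most (1.59 and 1.46), Slc25a1 and Acot7 less (0.49 and 0.40), and Acly fell by 1.25.

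The steps around the 9 genes were examined with 8 lists of 88 genes in all, of which 72 were tested and which include the 9 genes. Of the 63 tested genes that are not among the 9, 13 were higher and 3 lower in AclyM-KO macrophages (25.4%, against 12.3% of all tested genes), with a median log2 fold change of 0.081. Of the tested genes, 80% passed among the cytosolic acetyl-CoA users, with lower shares in the lists of ketone bodies (40%), citrate (38.5%), acetate (25%), pyruvate dehydrogenase (21.4%), thioesterases (20%), coenzyme A (18.2%) and the carnitine shuttle (16.7%). These shares count the 9 genes as well, of which Aacs, Acly, Slc25a1, Acss2 and Acot7 passed. Besides them, only Bdh1 passed among the ketone bodies, only Sirt3 in the acetate list and only Acot11 among the thioesterases. The lists hold 5 to 14 tested genes each, and the share of the carnitine shuttle, which is 1 gene, lay near that of all tested genes. The lists were written with earlier results of these data known.

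The enzymes that use cytosolic acetyl-CoA had the highest median log2 fold change of the 8 lists (1.59). Of 5 tested genes in that list, 4 were higher and 0 lower. These were Acat2, the cytosolic acetoacetyl-CoA thiolase (log2 fold change 2.56), Fasn, the fatty acid synthase (1.73), Hmgcs1, the cytosolic HMG-CoA synthase (1.59), and Acaca, an acetyl-CoA carboxylase (0.72, adjusted p = 0.00363 in edgeR). Hmgcs1 had the highest level, from 59.6 RPKM in control to 179 RPKM in AclyM-KO macrophages. Slc33a1, the carrier that brings acetyl-CoA into the endoplasmic reticulum, was at -0.053 (adjusted p = 0.706 in edgeR).

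In the list of citrate making, export and the malate shuttle, 4 of 13 tested genes were higher and only Acly was lower. Besides Slc25a1, these were Me1, the cytosolic malic enzyme that makes NADPH (log2 fold change 1.40, adjusted p = 0.00252 in edgeR), and the malate dehydrogenases Mdh2 (0.30) and Mdh1 (0.22). Me1 was weakly expressed, with 2.40 CPM in control and 6.25 CPM in AclyM-KO macrophages on average. The adjusted p of Mdh1 was 0.0465 in edgeR and was above the threshold in 9 of 15 alternatives, among them DESeq2 and each control library left out, and that of Mdh2 (0.0156) was above it in 4 of 15, without control replicate 1, 2 or 3 and without AclyM-KO replicate 3. Idh1, cytosolic isocitrate dehydrogenase, was the most abundant gene of the list and had 155 RPKM in control and 159 RPKM in AclyM-KO macrophages (log2 fold change 0.032, adjusted p = 0.799 in edgeR). Citrate synthase (Cs) was at 0.14 (adjusted p = 0.182 in edgeR).

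Of 14 tested genes of pyruvate dehydrogenase and its regulators, 2 were higher and 1 lower (21.4%, against 12.3% of all tested genes). The catalytic and binding subunits Pdha1, Pdhb, Dlat, Dld and Pdhx had log2 fold changes between -0.022 and 0.17, and none passed the test. Dld, the most abundant of them, had 38.4 RPKM in control and 43.2 RPKM in AclyM-KO macrophages. Pdk2, a kinase that inhibits the complex, fell by 0.74 on the log2 scale (adjusted p = 0.0228 in edgeR), and Pdp2, a phosphatase that activates it, rose by 0.62 (adjusted p = 0.00189 in edgeR). Pdk1, a more abundant kinase (86.1 CPM in control), was at 0.032 (adjusted p = 0.868 in edgeR). Pdp1, a more abundant phosphatase (76.4 CPM in control), was at 0.092 (adjusted p = 0.45 in edgeR). The kinase Pdk3 was at -0.15 (adjusted p = 0.474 in edgeR). The Pdk2 levels were 23.0, 19.4 and 18.9 CPM in control and 14.5, 8.69 and 14.4 CPM in AclyM-KO libraries, lowest in replicate 2. The Pdk2 call was lost without control replicate 1, 2 or 3, with an adjusted p of up to 0.107 in edgeR. Its log2 fold change ranged from -0.88 to -0.49 over the 15 alternatives. Mpc1, a subunit of the mitochondrial pyruvate carrier, was at -0.37 (adjusted p = 0.0948 in edgeR), also with all AclyM-KO libraries below control. Pcx, pyruvate carboxylase, rose from 2.07 to 4.71 CPM (log2 fold change 1.17, adjusted p = 0.00452 in edgeR).

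Among 8 tested genes of acetate uptake, activation and release, Acss2 was higher and Sirt3, a mitochondrial deacetylase known to activate ACSS1, was lower (-0.57, adjusted p = 0.0414 in edgeR). The Sirt3 call was lost in 6 of 15 alternatives, with DESeq2, without any 1 control library, and without AclyM-KO replicate 2 or 3. The monocarboxylate transporter gene Slc16a1 was at 0.45 with an adjusted p of 0.0554 in edgeR. The more abundant Slc16a3 and Slc16a7 of the same family were at -0.047 and -0.15 (adjusted p = 0.8 and 0.309 in edgeR). Sirt1, a nuclear and cytosolic deacetylase of ACSS2, was at 0.27 (adjusted p = 0.0954 in edgeR). Bsg, which encodes a chaperone of monocarboxylate transporters, was the most abundant gene of the list, with 190.0 RPKM in control and 176 RPKM in AclyM-KO macrophages (adjusted p = 0.298 in edgeR). Acss3, Slc5a8 and Acot12 had 0 CPM in both groups.

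Of 5 tested genes of ketone body making and use, Aacs and Bdh1 were higher. Bdh1, a mitochondrial hydroxybutyrate dehydrogenase, had only 0.982 CPM in control and 2.15 CPM in AclyM-KO macrophages (log2 fold change 1.15, adjusted p = 0.0294 in edgeR), and its call was lost with DESeq2, without any 1 control library, and without AclyM-KO replicate 2 or 3. Oxct1, which activates acetoacetate in mitochondria, was the most abundant with 88.9 and 95.9 RPKM (log2 fold change 0.11, adjusted p = 0.318 in edgeR).

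In the carnitine shuttle 1 of 6 tested genes passed (16.7%, near the 12.3% of all tested genes). Cpt1a, which starts fatty-acid import into mitochondria, was lower (-0.35, adjusted p = 0.00571 in edgeR), with 36.4 RPKM in control and 28.6 RPKM in AclyM-KO macrophages. Slc25a20, the carrier of acylcarnitines, was at -0.27 (adjusted p = 0.0713 in edgeR), with all AclyM-KO libraries below control. Crat, Crot, Cpt2 and Slc22a5 lay between -0.0096 and 0.086. Among 10 tested acyl-CoA thioesterases Acot7 and Acot11 (0.37, adjusted p = 0.0359 in edgeR) were higher, and the Acot11 call was lost in 6 of 15 alternatives, with DESeq2, without any 1 control library, and without AclyM-KO replicate 1 or 3. Acot13 was the most abundant of the list, with 32.5 and 35.1 RPKM. Of 11 tested genes of coenzyme A making and breakdown, the pantothenate kinases Pank1 (0.55, adjusted p = 0.0053) and Pank3 (0.51, adjusted p = 0.00298 in edgeR), which catalyse the first step of its synthesis, were higher. Pank3 was the most abundant gene of this list, at 30.0 RPKM in control and 42.5 RPKM in AclyM-KO macrophages.

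**Figure D4:**
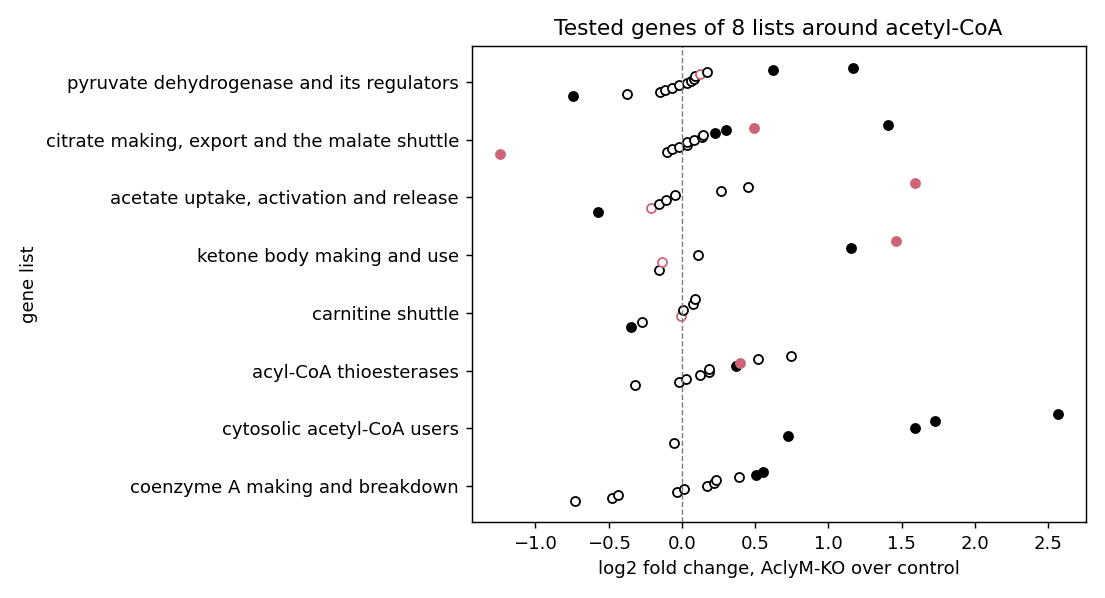
Log2 fold change (x axis) of each tested gene in the 8 lists. Red points are the genes among the 9, black points are other genes, and filled points passed an adjusted p of 0.05. The list of cytosolic acetyl-CoA users had 4 of 5 genes filled, all to the right of 0, whereas the carnitine shuttle had 1 of 6, to the left of 0.

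The tested genes most like Acss2 and Acly over the 6 libraries were found from the root mean square difference of log2 CPM, with each gene centred on its mean. For Acss2 these were Uchl1 (0.14), Dhcr7 (0.17), Nptxr (0.18), Myo6 (0.20) and Insig1 (0.20), with log2 fold changes from 1.38 to 1.93. For Acly they included Il18bp (0.065), Angptl4 (0.12), Itga9 (0.12) and Bmp2 (0.15), with log2 fold changes from -1.30 to -1.12. None of the 9 genes was among them. The measure selects genes whose groups differ alike, so these fold changes follow from the selection.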

How the data were processed

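Total RNA of unstimulated BMDMs was measured in 6 strand-specific mRNA libraries. The authors aligned reads to mm10 (STAR 2.5.2b and CASAVA 1.8.2 per the submitters' processing notes), filtered alignments on mapping quality and summed reads per RefSeq transcript with HOMER2 at default settings. The authors deposited raw counts of 35745 transcripts in 12 columns, of which 6 were used and the other 6 were not used here. The RefSeq release is not given in the sources used here, and whether the default counting used strand was not tested.

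Symbols were assigned from RefSeq (35440 transcripts) and GENCODE M21 (188), and 117 kept their accession. The row with the highest total represented each gene, since shared exons are counted in several rows. Tests used edgeR 4.0.16 in R 4.3.3 (TMM, filterByExpr, quasi-likelihood test, Benjamini-Hochberg adjustment over 11470 genes) and were tested on simulated data. The common biological coefficient of variation was 8.9%. Standard errors were derived from the F statistic. RPKM used GENCODE lengths of the matching transcripts, GENCODE coordinates and RefSeq promoters (GRCm38). The members and lists were chosen with earlier results of these data known. Named were all 9 genes with all their rows, every gene of the 8 lists past the threshold, the most abundant gene of each list, and the 5 genes most like Acss2 and Acly, with some other list genes chosen after their values were seen. A few genes that these rules or the marker lists name are not reported here. Ratios were compared with a two-sided exact permutation test. Alternatives were DESeq2 1.42.0, limma-voom with sample weights (limma 3.58.1), which changes the test and the weight of each library together, other size factors, low-count filters and thresholds, a replicate block, all transcripts, AclyM-KO replicate 2 thinned to the mean depth of the others, and each library left out.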

Additional observations from a re-analysis of the deposited data

How the results depend on the processing

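Each of the 9 genes was tested under 15 alternatives. Acly, Acss2, Aacs and Slc25a1 passed in all 15, Acss1, Acat1 and Pdha1 in none, with no change of direction, and Acot7 in 12, failing without control replicate 1, 2 or 3 (log2 fold change 0.40, 0.37 and 0.42). The direction of Crat, which passed in none, turned with total counts only (0.024), weighted limma-voom (0.074), without control replicate 3 (0.0018) and without AclyM-KO replicate 2 (0.098), with a range of -0.090 to 0.098 when any 1 library was left out. A further limit of 0.5 on the size of the log2 fold change left 2 of the 4 higher genes. In the 8 lists, the 4 lower genes became 7 with weighted limma-voom and 2 at an adjusted p of 0.01, and 2 to 5 with each library left out, the 2 without any 1 control library, while the 17 higher genes ranged from 12 to 19 over all alternatives. Over all genes, the 1416 calls became 2187 with weighted limma-voom, 2446 with all transcripts tested, 557 at an adjusted p of 0.01 and 719 with the fold change limit. With each library left out they ranged from 598, 628 and 658 without control replicates 1, 3 and 2 to 2136 without AclyM-KO replicate 2, and the cause was not tested. The difference in log2 ratio stayed between 1.68 and 1.97 for Acss2 to Acss1 and between 2.70 and 3.03 for Acss2 to Acly with each library left out. With the replicate number as a block, 4 of the 9 genes were higher and 1 lower, 17 and 4 in the lists, and 1583 over all genes. The groups share replicate numbers, but deviations of same-numbered libraries correlated with r = 0.090, 0.11 and -0.047 across genes, and replicate 3 did not correlate best with its own number, so the numbers were not taken as pairs. Acss2 had 87 to 114 counts per control library, the fewest of the 9 genes. Its control level also varied most relative to its mean (8.39 ± 1.77 CPM, SD, n = 3), and the cause of this spread was not tested.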
